A study of Schizosaccharomyces pombe with 4 samples.

Results

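The Sty1 and Atf1 stress pathway of the fission yeast Schizosaccharomyces pombe is described here through 10 of the 6807 genes measured, chosen as a fixed list of systematic gene IDs. Of these, 4 belong to the pathway itself (sty1, atf1, pcr1 and pyp2) and 6 are genes that stress induces (gpd1, tps1, ntp1, hsp9, ctt1 and SPAC1F7.12). The list gave SPAC1F7.12 the name plr1, but RefSeq's gene table names this ID yak3 and gives plr1 to another gene, SPAC9E9.11. The ID was kept as listed and is called yak3 below.

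RNA was measured in cells deleted for eif3e, the gene of a subunit of translation initiation factor eIF3 that is also called int6, and in wild-type cells, with 2 libraries of each strain. The deletion strain carried int6::kanMX6, a disruption by a drug resistance cassette, and the wild-type strain did not. The auxotrophic markers leu1-32 and ura4-D18 and the mating type h- were common to both. All cells grew in rich yeast extract medium with adenine and uracil, and the labels name no stress treatment. The labels name neither separate cultures nor separate deletion clones, so the p-values below measure only the spread between these libraries, which may be technical.

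Sty1 is a mitogen-activated protein kinase of the p38 type. A phosphorelay and a kinase cascade switch it on under osmotic, oxidative and heat stress and nutrient limitation, and it then phosphorylates Atf1, a bZIP transcription factor that pairs with Pcr1. The pair binds sites resembling the cAMP response element in front of genes for osmolyte synthesis, trehalose turnover and peroxide removal, and also in front of pyp2, whose product is a tyrosine phosphatase that switches Sty1 off again. Cells without eIF3e have been described elsewhere as holding less Atf1 protein, a quantity that RNA levels do not measure.

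The promoter stretches that carry the binding-site core TGACGT are shown first, because Atf1 and Pcr1 are known to act through it. Among the 10 genes, 4 had TGACGT on either strand within the 500 bases before the gene start that RefSeq annotates (atf1, gpd1, ntp1 and ctt1), against 8.14% of 5112 protein-coding genes. The longer form ATGACGT, which contains TGACGT, was present before the same 4 genes, against 1.92% of promoters. Each sequence below is from RefSeq assembly ASM294v3, reads 5′ to 3′ towards the gene, covers the bases from 150 to 35 before the gene start, and has TGACGT or its reverse complement in capitals.

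atf1, chr2:1546067-1546182, plus strand: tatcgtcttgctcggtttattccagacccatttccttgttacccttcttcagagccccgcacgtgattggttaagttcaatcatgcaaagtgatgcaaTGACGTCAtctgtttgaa

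gpd1, chr2:4035416-4035531, plus strand: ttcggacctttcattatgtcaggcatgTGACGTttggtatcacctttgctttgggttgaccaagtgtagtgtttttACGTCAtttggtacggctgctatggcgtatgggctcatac

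ntp1, chr2:206431-206546, plus strand: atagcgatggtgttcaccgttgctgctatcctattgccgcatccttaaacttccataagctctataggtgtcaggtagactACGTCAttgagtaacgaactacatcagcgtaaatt

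ctt1, chr3:58868-58983, minus strand: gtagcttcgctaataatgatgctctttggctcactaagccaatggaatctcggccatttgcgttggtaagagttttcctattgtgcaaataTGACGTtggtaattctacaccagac

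In front of atf1 the matches on the plus and minus strands overlap in one palindrome, the first beginning 52 bases before the start. In gpd1 they lie apart, at 123 and 74 bases before the start, while ntp1 has a single match at 69 and ctt1 one at 59. The stress-response-type element AGGGG was found before hsp9 alone of the 10 genes, at 391 and 176 bases before its start, and before 16.3% of all promoters. No TGACGT lay in this window of sty1, pcr1, pyp2, tps1, hsp9 or yak3, which says only that these letters are not there. The deposited starts of pyp2 and yak3, 5202366 and 4248777, lie furthest before RefSeq's, 5202656 and 4248932. Those of tps1 (3479098 against 3479149) and, on the minus strand, pcr1 (4253622 against 4253600) also lie before RefSeq's. The same holds for atf1, ntp1 and ctt1. Part of their windows therefore falls inside the gene as deposited, and the bases before those starts were not searched to the same distance. In the other pathway genes described below, TGACGT preceded 9 of 49 (18.4%), among them srk1, rsv2 and isp6. These matches are a description of sequence and were not tested against the RNA changes.

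The 4 libraries held 28254322 and 16679123 reads in features in eif3e deletion replicates 1 and 2, against 17485020 and 9926548 in wild-type replicates 1 and 2. Protein-coding genes took 10.3% to 17.4% of these reads, and a smaller share in replicate 2 than in replicate 1 of each strain. Although rRNA had been depleted, rRNA features still took 51.9% and 64.1% in deletion replicates 1 and 2. In wild-type replicates 1 and 2 they took 47.6% and 56.6%. Levels are given as CPM, counts scaled to the size of the library after TMM normalisation for its composition, and changes are log2 ratios of deletion over wild type fitted by edgeR. A gene passed at a Benjamini-Hochberg adjusted p under 0.05 over all 5915 features that passed a filter on low counts. The deleted gene int6 held 1 and 10 reads in the deletion libraries, against 504 and 194 in the wild-type libraries. Even that difference, −6.23 on the log2 scale, missed that threshold, at an edgeR adjusted p of 0.111. Of the M-cell genes expected in an h- strain, the pheromone gene mfm2 held 10.2 and 15.1 CPM in the deletion and 7.14 and 12.1 CPM in wild type. The 6 M-cell markers summed to 14.3 and 19.03 CPM in the deletion, against 12.1 and 17.2 CPM in wild type. Most of that was mfm2, with mfm1 at 0 or 1 read in every library. mat1-Mc held 0.314 and 1.01 CPM in the deletion and 0.173 and 0.354 CPM in wild type. mam2 held 2.11 and 2.27 CPM in the deletion and 3.94 and 3.42 CPM in wild type. The P-factor gene map2 stayed at or under 1.42 CPM, and the P-cell gene map3 at or under 2.53 CPM. The 3 P-cell markers measured summed to 37.6 and 41.9 CPM in the deletion and 29.4 and 39.3 CPM in wild type, nearly all of it sxa1, and mat1-Pc was not analysed here.

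None of the 10 genes passed the threshold in edgeR's quasi-likelihood test. Of all features 0.0169% passed, 1 gene higher in the deletion (str3) and 0% lower. At an unadjusted p under 0.05 sty1 was higher in the deletion, against 4.8% of all features, and gpd1 and hsp9 were lower, against 5.31%, which makes 3 of the 9 genes that could be fitted, against 10.1% in either direction. DESeq2 called 0 of the 10, and limma-voom 0 of the 9 it fitted. At an unadjusted p under 0.05 DESeq2 had 1 of these genes, against 540 of all 6754 features. By the same measure limma-voom had 3, against 807 of all 5915. With RLE size factors, upper quartile or TMM over protein-coding genes, edgeR had 2, against 596, 595 and 611 of all 5915. It had 3 with no filter and 3 with the replicate number as a block, against 673 of all 6754 and 967 of all 5915. limma on log2(RPKM + 1) and log2(RPKM + 0.1) had 0, against 366 and 385 of all 5915. The members whose deletion libraries did not overlap the wild-type ones were again sty1, gpd1 and hsp9, against 41.5% of features. The median log2 change over the 9 genes was −0.25, against 0.00 over all features tested, but it was 0.14 without wild-type replicate 1 and −0.51 without wild-type replicate 2. The gene that the filter removed was pcr1, which is counted as a member below by its reads.

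**Figure D1:**
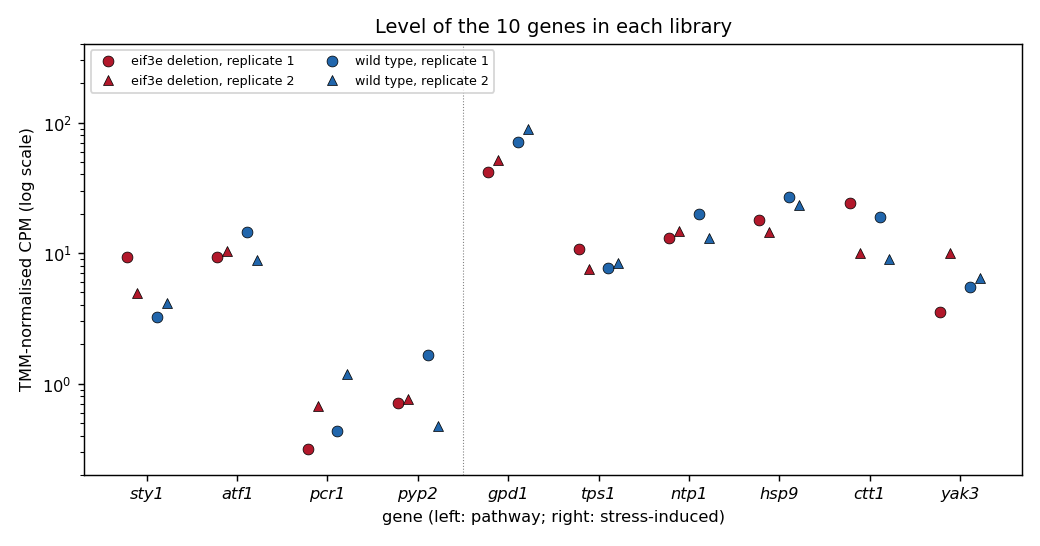
TMM-normalised CPM on a log axis of the 10 genes in each library, with the eif3e deletion libraries in red left of the wild-type libraries in blue, circles for replicate 1 and triangles for replicate 2. The deletion points lie below the wild-type points for gpd1 and hsp9 and above them for sty1, and the strains overlap for the other 7 genes.

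Levels of different genes can be compared per length of transcript. On that scale gpd1 and hsp9 stood far above the rest, with means over the 4 libraries of 35.8 and 28.7 CPM per kb, above 89.9% and 87.9% of protein-coding genes. hsp9 did not overlap the next gene, ctt1, at 6.99 CPM per kb. From ctt1 down through ntp1 (4.96), yak3 (4.37), tps1 (3.91), atf1 (3.84) and sty1 (3.45 CPM per kb), each gene's range over the libraries overlapped that of its neighbour in the order. pcr1 and pyp2 came last, at 0.439 and 0.316 CPM per kb, above 6.62% and 4.70% of protein-coding genes. Their ranges overlapped each other, and that of pcr1 lay wholly below that of sty1.

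The kinase gene sty1 (SPAC24B11.06c, chromosome 1, positions 206476 to 208044, minus strand) was higher in the deletion. It held 9.29 and 4.97 CPM in deletion replicates 1 and 2, from 326 and 59 reads, against 3.24 and 4.13 CPM in wild-type replicates 1 and 2, from 75 and 35 reads. Deletion replicate 1 was the high library, and deletion replicate 2 lay only slightly above wild-type replicate 2, whose 35 reads carry an exact 95% Poisson interval of 2.87 to 5.74 CPM. The fitted ratio was 1.98 (log2 change 0.98, standard error 0.42), and the edgeR p was 0.0498 before and 0.493 after adjustment. The log2 change came to 0.45 without deletion replicate 1 and to 1.36 without deletion replicate 2. The deletion replicates themselves differed by 0.90 on the log2 scale, about as much as the strains.

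A non-coding RNA on the opposite strand, SPNCRNA.622 (positions 206775 to 209401), overlaps sty1 over 1270 of its 1569 bases. Whether the counting used strand is unknown from the labels and headers, so reads of this pair may not have been told apart. SPNCRNA.622 held 15.7 and 12.3 CPM in the deletion, against 10.99 and 13.4 CPM in wild type (log2 change 0.21, standard error 0.29, edgeR adjusted p 0.855). The strains overlapped for the non-coding RNA, and its highest library was the same one as for sty1. The ratio of sty1 to SPNCRNA.622 was 0.593 and 0.404 in the deletion and 0.295 and 0.307 in wild type.

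**Figure D2:**
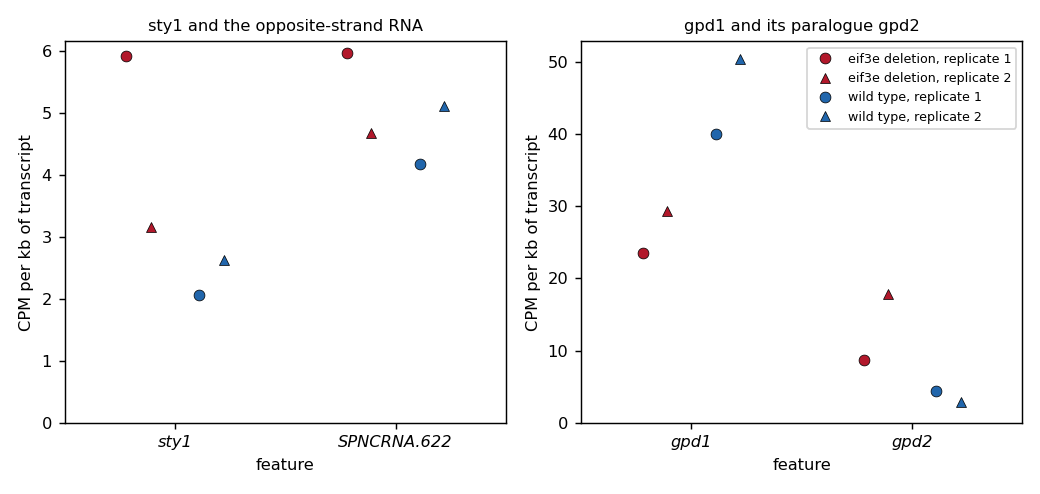
CPM per kb of transcript in each library for sty1 beside the overlapping opposite-strand RNA SPNCRNA.622 (left) and for gpd1 beside its paralogue gpd2 (right), deletion in red left of wild type in blue. sty1 is highest in deletion replicate 1 at 5.92, and gpd1 is lower while gpd2 is higher in both deletion libraries.

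The gene of the transcription factor Atf1 (SPBC29B5.01, chromosome 2, positions 1546194 to 1549862) did not separate the strains. It held 9.38 and 10.4 CPM in the deletion and 14.6 and 8.84 CPM in wild type. Wild-type replicate 1 was the high library and wild-type replicate 2 the low one, so that both deletion libraries lay between them. Its fitted log2 change was −0.27 (standard error 0.33, edgeR adjusted p 0.841), and 0.15 without wild-type replicate 1. atf1 overlaps SPNCRNA.1441, a sparse non-coding RNA of 2 to 15 reads, over 61 bases on the same strand. A change of 2-fold would rarely be called with these libraries. In simulated data for this comparison, edgeR recovered 4% of genes changed 2-fold and 61.2% of those changed 4-fold. The simulation gave every gene the same dispersion, 0.111, and recovered 97.2% of genes changed 16-fold. In the real data int6 missed the threshold at a log2 change of −6.23, so these shares may overstate what could be called here.

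pcr1 (SPAC21E11.03c, chromosome 1, positions 4252142 to 4253622), the gene of Atf1's bZIP partner, was at the edge of detection. It held 11 and 8 reads in the deletion libraries and 10 and 10 in the wild-type libraries. These are 0.314 and 0.673 CPM in the deletion, against 0.433 and 1.18 CPM in wild type. The exact 95% Poisson intervals were 0.157 to 0.561 and 0.291 to 1.33 CPM in the deletion and 0.207 to 0.796 and 0.565 to 2.17 CPM in wild type, and they cover counting error only. The strains overlapped, and any difference was not detectable at this depth. Fitted without the filter, pcr1 had a log2 change of −0.69 and an edgeR adjusted p of 0.895.

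The phosphatase gene pyp2 (SPAC19D5.01, chromosome 1, positions 5202366 to 5205202), itself a known Atf1 target, was as sparse. It held 25 and 9 reads, or 0.713 and 0.758 CPM, in the deletion, against 38 and 4 reads, or 1.64 and 0.472 CPM, in wild type. The deletion values were close to each other and lay between the widely spaced wild-type values. The fitted log2 change was −0.59, smaller than its standard error of 0.93, at an edgeR adjusted p of 0.877, and it was 0.63 without wild-type replicate 1. emc10, which overlaps pyp2 over 48 bases on the opposite strand, held 233 and 99 reads in the deletion, against 117 and 29 in wild type, and had a log2 change of 0.79, opposite in sign to that of pyp2.

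Among the stress-induced genes, gpd1 (SPBC215.05, chromosome 2, positions 4035580 to 4037342) had the largest fitted difference. It encodes glycerol-3-phosphate dehydrogenase, the enzyme that makes the precursor of the osmolyte glycerol. gpd1 held 41.5 and 51.7 CPM in the deletion, from 1455 and 614 reads, against 70.6 and 88.9 CPM in wild type, from 1631 and 754 reads. Both deletion libraries lay below both wild-type libraries, as they did for 21.4% of all features. The fold was 0.584 (log2 change −0.78, standard error 0.26), and the edgeR p was 0.0211 before and 0.400 after adjustment. Replicates of a strain were closer to each other than the strains were, and replicate 1 minus replicate 2 came to −0.32 in the deletion and −0.33 in wild type on the log2 scale. Leaving out any 1 library gave changes of −0.94 to −0.60. gpd1 overlaps no other feature of the table.

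hsp9 (SPAP8A3.04c, chromosome 1, positions 5319957 to 5320676, minus strand), a small heat shock protein gene, was also lower. It held 18.0 and 14.5 CPM in the deletion, against 26.8 and 23.5 CPM in wild type, and again the strains did not overlap. The fold was 0.648 (log2 change −0.63, standard error 0.26), and the edgeR p was 0.0439 before and 0.482 after adjustment. The changes with 1 library left out ran from −0.79 to −0.48. A non-coding RNA on the same strand, SPNCRNA.1071, overlaps the first 64 bases of the gene. It held 23 and 6 reads in the deletion libraries and 0 in both wild-type libraries, where a count of 0 allows up to 3 reads. It was too sparse for the fit, and its part in the hsp9 value was not tested.

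Neither of the trehalose genes separated the strains. tps1 (SPAC328.03, chromosome 1, positions 3479098 to 3481305), for trehalose-6-phosphate synthase, held 10.8 and 7.58 CPM in the deletion, against 7.74 and 8.37 CPM in wild type. ntp1 (SPBC660.07, chromosome 2, positions 206580 to 209641), for the neutral trehalase that breaks the sugar down, held 13.1 and 14.8 CPM in the deletion, against 19.9 and 13.0 CPM in wild type. Each deletion pair overlapped its wild-type pair, with wild-type replicate 1 the high library for ntp1 and deletion replicate 1 for tps1. The log2 changes were 0.20 for tps1 and −0.25 for ntp1, with standard errors of 0.31 and 0.30 and edgeR adjusted p of 0.875 and 0.839. tps1 overlaps dbl4 on the same strand over 63 bases, and ntp1 overlaps SPNCRNA.1327 on the opposite strand over 331, which leaves their levels uncertain to that extent.

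The catalase gene ctt1 (SPCC757.07c, chromosome 3, positions 56654 to 58865), whose enzyme removes hydrogen peroxide, varied more between replicates than between strains. It held 24.1 and 9.93 CPM in the deletion, against 18.9 and 8.96 CPM in wild type. Replicate 1 was the high library of both strains, with log2 gaps between replicates of 1.28 in the deletion and 1.07 in wild type. The fitted log2 change was 0.28 (standard error 0.50, edgeR adjusted p 0.889). It became −0.50 without deletion replicate 1 and 0.93 without wild-type replicate 1.

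yak3 (SPAC1F7.12, chromosome 1, positions 4248777 to 4250231), an aldo-keto reductase gene, also varied between replicates, but in the deletion with replicate 2 the higher. It held 3.51 and 9.93 CPM in the deletion, against 5.49 and 6.48 CPM in wild type, so the deletion libraries lay on either side of the wild-type ones. Its fitted log2 change was 0.14 (standard error 0.51, edgeR adjusted p 0.948), and it was 0.74 without deletion replicate 1 and −0.76 without deletion replicate 2. plr1 (SPAC9E9.11), the gene of a pyridoxal reductase whose name the list used, held 42.7 and 28.3 CPM in the deletion and 40.4 and 26.3 CPM in wild type, a log2 change of 0.09.

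**Figure D3:**
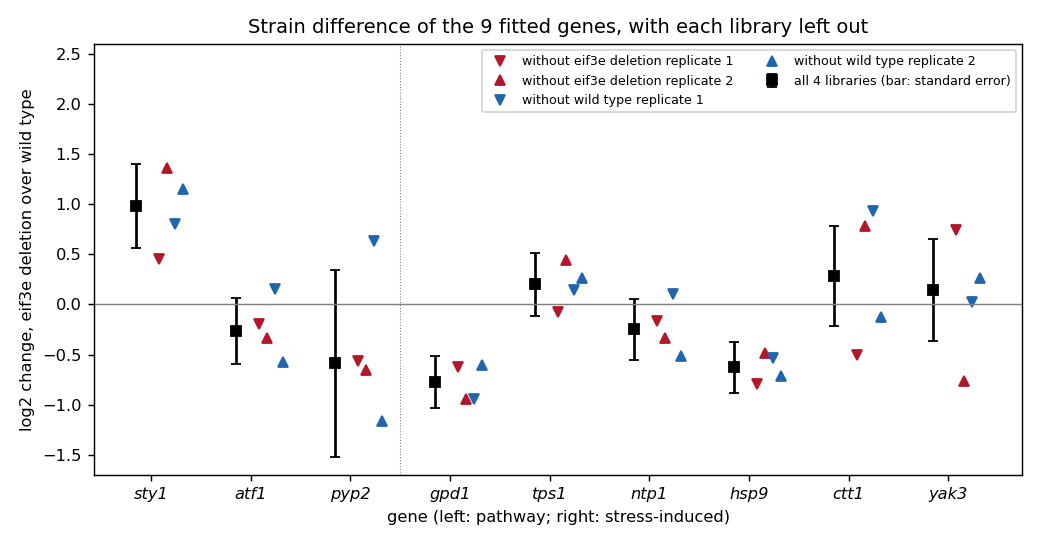
Log2 change of deletion over wild type for the 9 genes that could be fitted, as black squares with standard errors, beside the changes fitted with each library left out (red, a deletion library; blue, a wild-type library). sty1, gpd1 and hsp9 kept their direction in all 4 such fits, and atf1, pyp2, tps1, ntp1, ctt1 and yak3 crossed 0 in at least 1. For sty1, gpd1 and hsp9 this could hardly come out otherwise, because their deletion and wild-type libraries did not overlap.

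In the authors' deposited table, the p-value of a chi-square per feature was under 0.05 for 9 of the 10 genes, all but pcr1 at 0.184, and for 90.7% of all features. That chi-square has 3 degrees of freedom (99.5% of nonzero p matched within 1%), so it compares the 4 libraries with one another, not the strains. The deposited reads across exon junctions gave an RPKM of 0 in every library for all 10 genes. Only atf1, with a transcript of 2814 bases, has a transcript shorter than its deposited span. The other genes have no junction by those positions, so for them 0 was the only possible value.

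The rest of the pathway was described by a list of 49 genes, of which 48 were found in the table and 45 could be fitted. None passed the threshold in edgeR's test, 3 were higher and 1 was lower at an unadjusted p under 0.05, against 4.8% and 5.31% of all features, and the median log2 change was 0.23. DESeq2 called 1 of the 48, gpd2, as higher, against 80 of all 6754 features it fitted. Both deletion libraries lay above the wild-type ones for 14 of the 45, against 20.1% of all features, and below them for 9, against 21.4%.

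Upstream of Sty1, the sensor kinase genes mak1, mak2 and mak3 had log2 changes of −0.02, −0.00 and −0.33, and tdh1, a glyceraldehyde-3-phosphate dehydrogenase gene whose product joins the peroxide relay, had one of 0.40. The median of the 9 upstream genes was −0.03. mpr1, the phosphotransfer gene between the sensors and the response regulator Mcs4, was chosen after its values were seen. It held 7.24 and 9.01 CPM in the deletion, against 17 and 15.3 CPM in wild type, with no overlap, a log2 change of −1.0 and an edgeR adjusted p of 0.336. It overlaps maa1 on the same strand, and its deposited counts were fractional in all 4 libraries.

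The phosphatase genes that act on Sty1 beside pyp2 had a median change of −0.31. pyp1, the main tyrosine phosphatase gene in unstressed cells, held 1.14 and 4.63 CPM in the deletion, against 5.49 and 6.96 CPM in wild type, or a log2 change of −1.17 (standard error 0.64, edgeR adjusted p 0.594). Deletion replicate 1 was the low library. Without deletion replicate 2, the deletion library nearer to wild type, the change was −2.43, and the fits without each other library are not given here. ptc1, ptc2 and ptc3, of the PP2C family, had changes of −0.26, −0.36 and 0.22. The kinase genes downstream of Sty1, srk1 and cmk2, had changes of −0.29 and 0.51, and the strains overlapped for both.

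Of the other transcription factor genes of the stress response, 5 of 6 that could be fitted had positive changes, as did 2962 of all 5915 features, and the median was 0.45. prr1, the gene of a heat-shock-factor-like regulator that works with the peroxide factor Pap1, held 42.0 and 46.4 CPM in the deletion, against 26.3 and 26.8 CPM in wild type. Its log2 change was 0.73 (standard error 0.23, edgeR adjusted p 0.357), with no overlap between strains. rst2, pap1 and hsr1 had changes of 0.53, 0.36 and 0.17. Of the mRNA-binding protein genes, csx1, whose product is known to stabilise atf1 mRNA under oxidative stress, had a change of −0.23, and its interactors cip1 and cip2 had 0.38 and 0.32. upf1 had −0.23, and rnc1 and vgl1 had 0.59 and 0.44, giving the list a median of 0.35.

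Among 19 other stress genes, 18 could be fitted, 13 were positive and the median change was 0.31. gpd2, the paralogue of gpd1, held 15.8 and 32.3 CPM in the deletion, against 7.87 and 5.31 CPM in wild type. Its fitted log2 change was 1.84 (standard error 0.42, edgeR adjusted p 0.245), opposite in sign to that of gpd1. Without deletion replicate 1, the lower of the deletion pair, it was 2.28. gst2, a glutathione S-transferase gene, held 175 and 103 CPM in the deletion, against 68.4 and 21.5 CPM in wild type, a change of 1.62 with an edgeR adjusted p of 0.398. Its wild-type replicates differed by 1.67 on the log2 scale, as much as the strains. Without deletion replicate 2, the lower of the deletion pair, its change was 1.96. For gpd2 and gst2 alike, the library left out was the deletion library nearer to wild type. The fits without each other library are not given here. With the replicate number as a block, gpd2 passed at a log2 change of 1.73 and an edgeR adjusted p of 0.0398. In that fit gst2 passed at 1.79 and 0.0102, and 193 of all 5915 features did. The trehalose-phosphatase gene tpp1 and the glutathione peroxidase gene gpx1 had changes of 0.21 and 0.23. The 4 genes named were those with the highest mean CPM, and the lowest change of the list, chosen after its values were seen, was that of psp3, at −0.72 (edgeR adjusted p 0.517), with both deletion libraries below wild type. gpd2, tpp1 and gpx1 overlap a feature on the opposite strand.

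**Figure D4:**
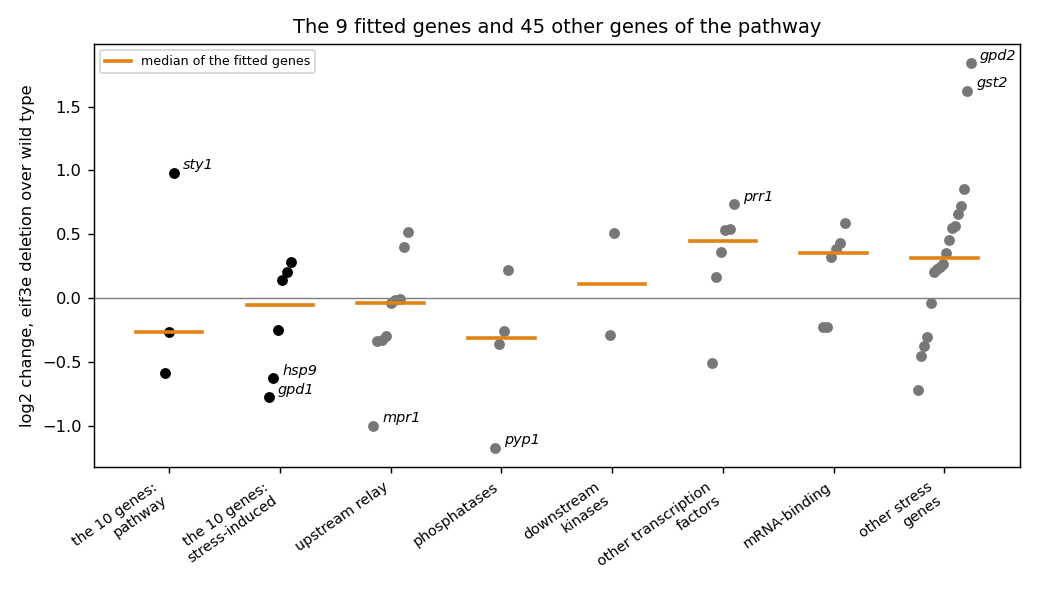
Log2 change of deletion over wild type for each fitted gene of the pathway, the 9 genes in black at the left and 45 other genes in grey by role, with the median of each group as an orange line. gpd2 and gst2 are the highest points at 1.84 and 1.62, and pyp1 and mpr1 the lowest at −1.17 and −1.0, none past the threshold.

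The genes nearest in pattern were found for the member of each group with the smallest p, by the distance between centred log2 CPM profiles over the 4 libraries, among 3940 protein-coding genes. For sty1 these were nif1, SPCC645.12c and SPBC16C6.01c, at distances of 0.10, 0.18 and 0.19 and with log2 changes of 0.97, 1.14 and 0.82. For gpd1 they were mbf1, dcr1 (the Dicer gene) and SPBC1347.09, each at a distance of 0.13, with log2 changes of −0.73, −0.87 and −0.71. With only 4 libraries, many genes can take such a pattern. Like all bulk measurements of a culture, these values do not tell fewer expressing cells from less RNA per cell.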

How the data were processed

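Per the labels' protocols, rRNA was depleted with a RiboMinus kit, the RNA was cut with RNase III and cDNA was read by SOLiD 4. Tools listed in the submitters' processing notes, with no role stated, were Partek 6.0, SAMtools, TopHat 1.4.1 and Bowtie 1.1.0. For genome build, annotation and strand use, nothing is given in the sources used here. Gene positions are therefore printed as the deposited table gives them, the end being 1 base before its stop value. Promoters were read from RefSeq's own coordinates in ASM294v3.

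The authors deposited estimated counts of reads per feature, not normalised, of which 89.6% to 91.9% were whole within 1e-06. They also deposited RPKM values, scaled by transcript length and library reads per the file headers, and a chi-square score and p-value per feature. Every column of counts or RPKM was tied to a library, while the chi-square, p-value and transcript length columns do not belong to a single library. Of 6808 features, 6636 (97.5%) matched RefSeq's gene table. Between replicates, the chi-square divided by its degrees of freedom was 265 in the deletion and 117 in wild type, so no pair looked like 1 library deposited again.

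Counts were rounded and fitted with edgeR 4.0.16 in R 4.3.3 (TMM, filterByExpr, quasi-likelihood F test, strain as the only term, two-sided), on all features, with Benjamini-Hochberg adjustment. Standard errors were derived from the log2 change and its F value. Log2 CPM profiles used a prior count of 2. DESeq2 1.42.0, limma-voom and limma 3.58.1 on log2(RPKM + 1) and log2(RPKM + 0.1) were alternatives, with other scalings, no filter, the replicate number as a block and each library left out. The fit was tested on 5 simulated data sets of 5915 features with 200 changed genes, in which 3.27% of calls were false. The same dispersion was used for every gene, so differences in spread between genes were not simulated.

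The genes and lists were chosen with earlier results of these data known. The 10 genes are all named, as are up to 4 of each other list by mean CPM, the whole list where it has 6 genes or fewer, and the nearest patterns. mpr1, psp3 and the listing of srk1, rsv2 and isp6 fall outside that rule. rsv1 was not analysed here.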

Additional observations from a re-analysis of the deposited data

How the results depend on the processing

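Of the 10 genes, 0 passed the threshold under all 13 alternatives tried, and the lowest adjusted p was 0.0734, for gpd1 in edgeR with the replicate number as a block. sty1, gpd1 and hsp9 kept their direction in all 13. Their deletion and wild-type libraries did not overlap, so leaving out 1 library could hardly reverse them, and those fits lend no added support. On the RPKM scale the median of all features shifted to −0.12 (pseudocount 1) and −0.17 (pseudocount 0.1), and relative to it sty1 stood at 0.70 and 0.87, gpd1 at −0.80 and −0.77, and hsp9 at −0.65 and −0.63. yak3 turned to −0.04 with the replicate block, to −0.21 in limma-voom and to −0.14 and −0.18 with log2(RPKM + 1) and log2(RPKM + 0.1), and tps1 turned to −0.00 with log2(RPKM + 0.1). With 1 library left out, log2 changes ran from −0.57 to 0.15 for atf1, −1.16 to 0.63 for pyp2, −0.08 to 0.44 for tps1, −0.51 to 0.10 for ntp1, −0.50 to 0.93 for ctt1 and −0.76 to 0.74 for yak3. The median over all 9 fitted genes ran from −0.51 to 0.14, positive without wild-type replicate 1. The cause of these turns was not tested.

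Over all features, 1 gene passed in the main test, against 80 in DESeq2, 20 with no filter, 46 and 69 with log2(RPKM + 1) and log2(RPKM + 0.1), and 193 with the replicate block. Leaving out 1 library gave 0 to 242, in fits where the lone library is assumed to vary like the other strain. Of the other pathway genes, 0 passed in the main test, 1 in DESeq2 (gpd2), 2 with the replicate block (gpd2 at a log2 change of 1.73 and adjusted p of 0.0398, and gst2 at 1.79 and 0.0102) and 0 to 2 with 1 library left out (gpd2, gst2 or pyp1). Same-numbered libraries deviated together across genes at a correlation of 0.238. Libraries of the same number also share the prefix of their titles, JS167 for replicate 1 and JS172 for replicate 2. The labels do not say what number or prefix marks, and whether it is a batch was not tested. Depth limits pcr1 and pyp2 most, at 4 to 38 reads a library.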

Other observations

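The glycerol-3-phosphate dehydrogenase genes gpd1 and gpd2 were set beside each other after their values were seen. Per kb of transcript, gpd1 made up 73.0% and 62.1% of the pair's CPM in eif3e deletion replicates 1 and 2, against 90.2% and 94.5% in wild-type replicates 1 and 2. The mean share was 67.6% ± 7.67 in the deletion and 92.4% ± 3.05 in wild type (SD, n = 2 each), a difference of −24.8 percentage points. In both deletion libraries gpd1 was already lower and gpd2 already higher when the pair was chosen, so the share had to separate the strains. A two-sided exact permutation test gave a p of 0.33, the smallest that 2 against 2 libraries allow, and lends no support. Neither gene passed the threshold over all features in the main test. gpd2 overlaps SPNCRNA.979 on the opposite strand, and the part of that overlap in its value was not tested.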
